A study of Mus musculus with 36 samples.

Results

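The genes described here are 9 transcriptional regulators that mark the layers of the cerebral cortex: Cux1, Cux2, Rorb, Fezf2, Tbr1, Foxp2, Etv1, Tle4 and Bcl11b. They were chosen by symbol as cortical layer regulators, with no threshold on measured values but with earlier results of these data known. All 9 were found among the 37315 genes of the count table. PolyA RNA came from hippocampal fields CA1 and CA3, from lateral entorhinal cortex (LEC) and from medial entorhinal cortex (MEC) of wild-type mice on a BL/6 background. Mice were housed singly, handled for 3 minutes a day over 5 days, and either kept in the home cage, exposed to a context or given a foot shock (the group called fear). Tissue was dissected 90 minutes after the behaviour, with 3 libraries for each of 12 groups, 36 in all. The labels give no age, do not separate cortical layers and do not tie libraries to mice, so libraries may share animals and a p-value reflects only how these libraries vary.

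Cortical projection neurons are built in layers, and each layer keeps a set of transcription factors into adult life. Cux1 and Cux2 mark the upper layers, whose neurons connect within the cortex, and Rorb marks the granular layer that receives thalamic input. Fezf2, Bcl11b and Etv1 mark deep neurons that project out of the cortex, and Tbr1, Foxp2 and Tle4 mark the deepest, corticothalamic neurons. In the entorhinal cortex, superficial neurons send the main cortical input to the hippocampus and deep neurons receive its return.

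Between 21871412 and 68974340 counts were assigned to genes per library (median 28098007). Levels are CPM, counts per 1000000 of a library's total, and levels of different genes are compared only per kilobase of exon (RPKM). Differences are log2 values from edgeR's quasi-likelihood test with standard errors. Called means an adjusted p (Benjamini-Hochberg, over all genes tested) under 0.05. In these bulk samples, fewer cells of a type and less RNA per cell cannot be told apart. Markers of CA3 pyramidal cells followed the dissection: 8 of them summed to 638 to 999 CPM in CA3 libraries and 102 to 409 CPM elsewhere. The sum of 8 CA1 markers was 692 to 1798 CPM in CA1 and 340 to 869 CPM elsewhere, ranges that overlap. CA1 home cage replicates 2 and 3 (692 and 744 CPM) and fear replicate 2 (830 CPM) lay within the MEC range of 544 to 869 CPM. The 10 entorhinal markers did not separate the tissues, with 995 to 1421 CPM in LEC, 809 to 1416 CPM in MEC and 623 to 1241 CPM in the hippocampal fields.

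Promoter sequences of the members that varied together in MEC are shown first, to let their base composition be read beside the counts. The RefSeq promoter table (GRCm38.p6) held 8 of the 9 members; Foxp2 was not in it. Each printed stretch is the part of the bases upstream of the first listed RefSeq start that lies in no GENCODE exon, 5′ to 3′ on the gene's strand. Those of Cux2 and Etv1 lie inside the GENCODE gene spans given below, downstream of the outermost annotated start. The windows of Cux1 and Tbr1 lie wholly in annotated exons and are not printed. Capitals mark matches to CCAAT on either strand (the reverse strand reads ATTGG). The stretches are Cux2 at chr5:122049852-122050015 (minus strand), Tle4 at chr19:14598184-14598433 (minus strand) and Etv1 at chr12:38779832-38780081 (plus strand).
Cux2: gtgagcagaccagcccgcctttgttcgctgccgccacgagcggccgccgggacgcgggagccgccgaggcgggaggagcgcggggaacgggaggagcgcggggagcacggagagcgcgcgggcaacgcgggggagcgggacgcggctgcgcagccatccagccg
Tle4: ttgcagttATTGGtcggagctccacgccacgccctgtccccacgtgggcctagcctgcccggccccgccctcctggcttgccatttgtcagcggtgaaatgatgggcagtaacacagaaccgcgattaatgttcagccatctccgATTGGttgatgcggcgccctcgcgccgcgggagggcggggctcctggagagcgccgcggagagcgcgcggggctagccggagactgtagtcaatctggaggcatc
Etv1: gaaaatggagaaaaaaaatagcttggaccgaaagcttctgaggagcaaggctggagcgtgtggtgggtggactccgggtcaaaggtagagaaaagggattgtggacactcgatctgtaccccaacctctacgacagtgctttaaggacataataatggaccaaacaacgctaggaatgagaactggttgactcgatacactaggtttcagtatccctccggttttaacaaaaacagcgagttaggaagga
The 300-base window of Cux2 was 80.3% G and C, above 99.1% of 32851 promoter windows, and held 48 CpG sites where the median window held 7. The Tle4 window was 65% G and C with 28 CpG sites and the Etv1 window 48.7% with 12, and that of Cux1 was 65% with 25. At further listed starts, a window of Cux2 was 56.7% with 4 CpG sites and one of Tle4 73% with 44. The Tle4 window had 2 CCAAT matches, a motif present in 37.4% of windows, and those of Cux2 and Etv1 had none. None of the 3 windows held the activity-related CRE (TGACGTCA, 1.79% of windows) or AP-1 (TGANTCA, 7.81%) motifs on either strand. A match or its absence describes these letters only.

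Upper- and deep-layer regulators were detected in all 4 regions, and most differed in mean level between entorhinal cortex and hippocampus. In the 36-library fit, 8 of the 9 members differed between entorhinal (LEC and MEC) and hippocampal (CA1 and CA3) libraries, 7 higher and 1 lower, where 50.9% of all 17875 genes were called (25.5% higher and 25.4% lower). The members' median difference was 0.70 on the log2 scale and that of all genes was -0.02. The ranges of the 18 entorhinal and 18 hippocampal libraries did not overlap for Cux1, Cux2 and Tbr1, which was true of 3.74% of all genes. Oligodendrocyte markers also separated these tissues: 9 summed markers were at 3480 to 13262 CPM in CA1 and CA3 and 1125 to 3370 CPM in LEC and MEC. Their part in the differences was not tested.

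**Figure D1:**
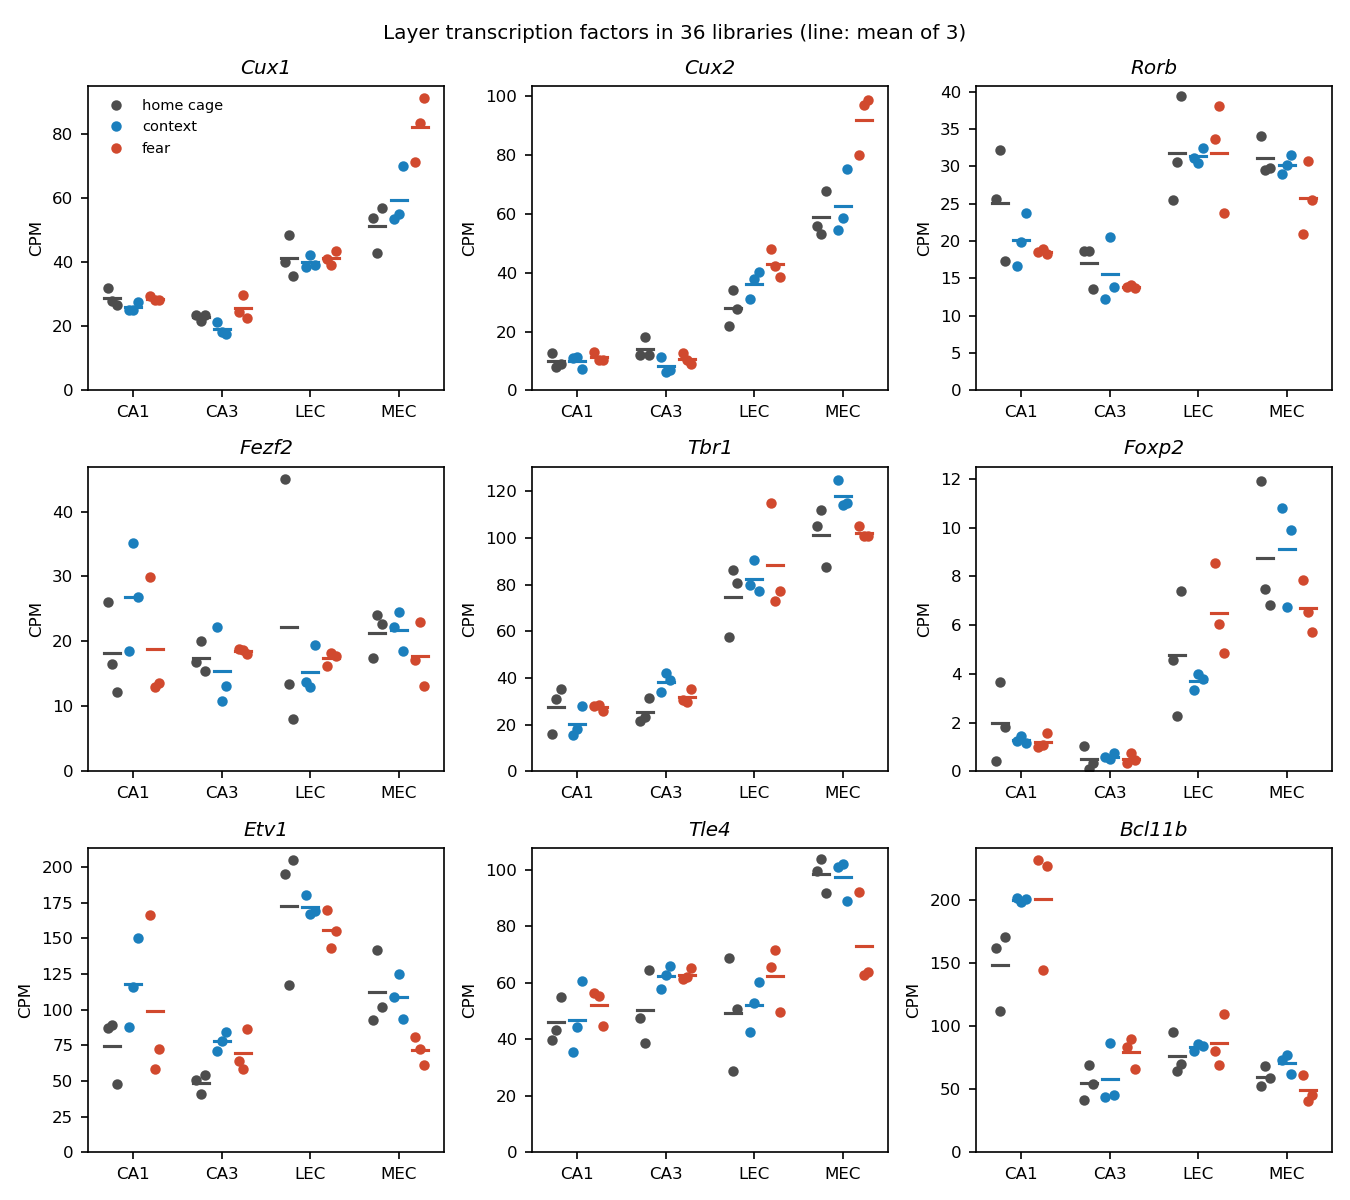
Level of each of the 9 genes in CPM (linear axes from 0) in each of 36 libraries, by region and condition, with a line at the mean of 3 libraries. Cux1, Cux2, Tbr1, Foxp2 and Tle4 have their highest mean in MEC, Etv1 in LEC and Bcl11b in CA1.

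Among upper-layer genes, Cux2 (ENSMUSG00000042589, GRCm38 chromosome 5, 121856366 to 122050102), a homeodomain protein of upper-layer neurons, had the steepest gradient. Its lowest, median and highest CPM were 53.1, 67.8 and 98.8 in MEC, 21.9, 37.9 and 48.2 in LEC, 6.35, 11.2 and 18.2 in CA3 and 7.13, 10.5 and 13.2 in CA1. Every MEC library lay above every LEC library, as for 3.17% of genes in either direction, and every LEC library above every hippocampal one. The entorhinal excess was 2.19 ± 0.09 (SE, adjusted p = 1.77e-19), the MEC excess over LEC was 0.96 ± 0.12 (adjusted p = 6.02e-07), and CA3 and CA1 did not differ beyond their spread (0.10 ± 0.13, adjusted p = 0.592).

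Its paralog Cux1 (ENSMUSG00000029705, chromosome 5, 136248135 to 136567490) followed the same order with smaller steps. The lowest, median and highest levels were 43.0, 56.9 and 91.4 CPM in MEC, 35.7, 40.0 and 48.4 CPM in LEC, 25.0, 28.0 and 32.0 CPM in CA1 and 17.7, 22.6 and 29.8 CPM in CA3. Entorhinal libraries were higher by 0.98 ± 0.05 (adjusted p = 1.35e-16), MEC was above LEC by 0.60 ± 0.07 (adjusted p = 3.95e-07) and CA3 was below CA1 at -0.25 ± 0.08 (adjusted p = 0.0115). With home cage libraries alone the MEC excess of Cux1 was 0.25 (adjusted p = 0.739), whereas that of Cux2 stayed at 1.01 (adjusted p = 0.0467). Counts of Cux1 carry an uncertainty, since its locus also encodes the Golgi protein CASP and 394 exon bases (1.97%) overlap the antisense gene Gm16599, and the strand setting of the counting is not given in the sources used here.

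Rorb (ENSMUSG00000036192, chromosome 19, 18930605 to 19111196), the orphan nuclear receptor of the granular layer, did not share the MEC peak. Its lowest, median and highest CPM were 23.8, 31.1 and 39.4 in LEC, 20.9, 29.8 and 34.1 in MEC, 16.6, 19.0 and 32.2 in CA1 and 12.2, 13.9 and 20.5 in CA3. The entorhinal excess was 0.70 ± 0.08 (adjusted p = 6.34e-09), and MEC and LEC did not differ beyond their spread (-0.16 ± 0.11, adjusted p = 0.398). CA3 was lower than CA1 at -0.38 ± 0.11 (adjusted p = 0.00969), but not without context replicate 3 (-0.32, adjusted p = 0.0690).

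The deep-layer genes did not move as one group. Tbr1 (ENSMUSG00000035033, chromosome 2, 61802930 to 61814114), a T-box factor of corticothalamic neurons, had lowest, median and highest levels of 87.4, 105 and 125 CPM in MEC, 57.5, 80.0 and 115 CPM in LEC, 21.7, 31.3 and 42.2 CPM in CA3 and 15.6, 27.9 and 35.4 CPM in CA1. No entorhinal library reached down to a hippocampal one, and the difference was 1.70 ± 0.09 (adjusted p = 1.84e-16). The LEC and MEC ranges overlapped: the MEC excess was 0.36 ± 0.12 (adjusted p = 0.0407), a call lost with DESeq2's size factors (adjusted p = 0.0506), without a filter on low counts (adjusted p = 0.0594), with home cage libraries alone (adjusted p = 0.731) and in 7 of 9 fits that each left out 1 replicate number of a condition in all regions (all but home cage 3 and fear 1). CA3 exceeded CA1 by 0.42 ± 0.13 (adjusted p = 0.0111), which was lost without fear replicate 3 (0.37, adjusted p = 0.0606) and was -0.05 in home cage libraries alone.

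Foxp2 (ENSMUSG00000029563, chromosome 6, 14901349 to 15441977), a forkhead factor of the deepest layer, was the scarcest member, with 2 to 472 counts in a library. Its lowest, median and highest CPM were 5.73, 7.48 and 11.9 in MEC, 2.29, 4.59 and 8.56 in LEC, 0.421, 1.26 and 3.67 in CA1 and 0.0839, 0.489 and 1.06 in CA3. The entorhinal excess of 2.79 ± 0.22 (adjusted p = 2.17e-12) was the largest among the members, CA3 lay below CA1 at -1.33 ± 0.33 (adjusted p = 0.00227), and MEC against LEC gave 0.71 ± 0.27 (adjusted p = 0.0685). That last difference was called with DESeq2 (0.70, adjusted p = 0.0481) and without home cage replicate 1 (0.59, adjusted p = 0.0468), 2 (0.64, adjusted p = 0.0463) or 3 (0.92, adjusted p = 0.0342).

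Tle4 (ENSMUSG00000024642, chromosome 19, 14448150 to 14598051) encodes a Groucho-family corepressor. Its lowest, median and highest CPM were 62.8, 92.2 and 104 in MEC, 28.8, 53.0 and 71.7 in LEC, 38.9, 62.2 and 66.0 in CA3 and 35.5, 45.0 and 60.6 in CA1. It was set apart by MEC alone: MEC exceeded LEC by 0.68 ± 0.13 (adjusted p = 0.000224), while LEC did not differ beyond its spread from CA1 (0.17 ± 0.13, adjusted p = 0.284) or CA3 (-0.17 ± 0.13, adjusted p = 0.312). CA3 exceeded CA1 by 0.34 ± 0.13 (adjusted p = 0.0403), a call lost without a filter (adjusted p = 0.0754) and in 7 of 9 fits that left out 1 replicate (all but home cage 2 and context 3).

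Etv1 (ENSMUSG00000004151, chromosome 12, 38779380 to 38870484), an ETS-family factor of output neurons, had its peak in LEC. Its lowest, median and highest CPM were 117, 169 and 205 in LEC, 61.3, 93.4 and 142 in MEC, 47.8, 88.0 and 166 in CA1 and 40.8, 63.7 and 86.2 in CA3. MEC was lower than LEC at -0.83 ± 0.16 (adjusted p = 0.000501), the opposite direction to Cux1, Cux2 and Tle4. MEC and CA1 did not differ beyond their spread (-0.02 ± 0.16, adjusted p = 0.933), and CA3 lay below CA1 at -0.50 ± 0.16 (adjusted p = 0.0203), which was lost without home cage 1 or 2, context 2 or 3, or fear 1 (-0.30, adjusted p = 0.154, without fear 1).

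Bcl11b (ENSMUSG00000048251, chromosome 12, 107910403 to 108003602), the zinc-finger protein also called Ctip2, was the only member lower in entorhinal cortex. Its lowest, median and highest CPM were 112, 199 and 232 in CA1, 64.8, 80.5 and 110 in LEC, 41.7, 66.1 and 90.2 in CA3 and 41.0, 61.2 and 77.3 in MEC. No CA1 library overlapped any library of another region, but the margin was small, with 111.9 CPM lowest in CA1 and 109.7 CPM highest in LEC. The share of all genes separated in this way was not computed. CA3 was lower than CA1 at -1.45 ± 0.14 (adjusted p = 1.44e-09), and MEC and CA3 did not differ beyond their spread (-0.19 ± 0.14, adjusted p = 0.307). LEC minus CA3 missed the threshold (0.31 ± 0.14, adjusted p = 0.0678), but passed without replicate 2 of home cage (0.42, adjusted p = 0.0185), context (0.47, adjusted p = 0.00593) or fear (0.40, adjusted p = 0.0222). MEC was lower than LEC at -0.50 ± 0.14 (adjusted p = 0.00909), but not without fear replicate 3 (-0.41, adjusted p = 0.0700). Bcl11b is also known from CA1 pyramidal and dentate granule neurons, and 9 dentate granule markers summed to 142 to 684 CPM in CA1 libraries, 63.9 to 325 CPM in CA3 and 63.5 to 109 CPM in entorhinal cortex, with no marker at 0 over a region. Their part in the Bcl11b level was not tested.

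Fezf2 (ENSMUSG00000021743, chromosome 14, 12342094 to 12348189), a zinc-finger gene that specifies neurons projecting below the cortex, was the member with no regional difference called in the fit of all 36 libraries. Medians were 18.6 CPM in CA1, 18.1 CPM in CA3, 16.3 CPM in LEC and 22.2 CPM in MEC, and all 4 ranges overlapped. The entorhinal minus hippocampal difference was -0.03 ± 0.16 (adjusted p = 0.902). MEC minus LEC was called without home cage replicate 1 (0.50, adjusted p = 0.0466). The LEC range of 8.02 to 45.0 CPM was the widest, and both ends were home cage libraries.

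Over pairs of regions, 6 members were called between MEC and LEC (17.4% of all genes), 7 between CA3 and CA1 (31%), 7 between LEC and CA1 (46.6%), 6 between LEC and CA3 (39.8%), 7 between MEC and CA1 (43.6%) and 7 between MEC and CA3 (38.4%). Leaving out 1 replicate number of a condition in all regions gave 4 to 7 between MEC and LEC and 5 to 6 between CA3 and CA1. It gave 6 to 7 for LEC or MEC against CA3 and 7 for either against CA1. In the 12 home cage libraries alone, 1 member was called between MEC and LEC (Cux2) and 1 between CA3 and CA1 (Bcl11b, -1.39, adjusted p = 0.00229). Shares of all genes called in these reduced fits are not given here, so their counts are not read as a result about the members. Per kilobase of exon, Tbr1 was the highest member in both parts of the entorhinal cortex (mean 19.6 RPKM ± 1.95, SD, n = 9, in MEC and 14.9 ± 2.79 in LEC), Bcl11b in CA1 (22.6 ± 4.85) and Tle4 in CA3 (10.3 ± 1.62). Foxp2 was the lowest member in every region, at 0.501 RPKM ± 0.131 in MEC.

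**Figure D2:**
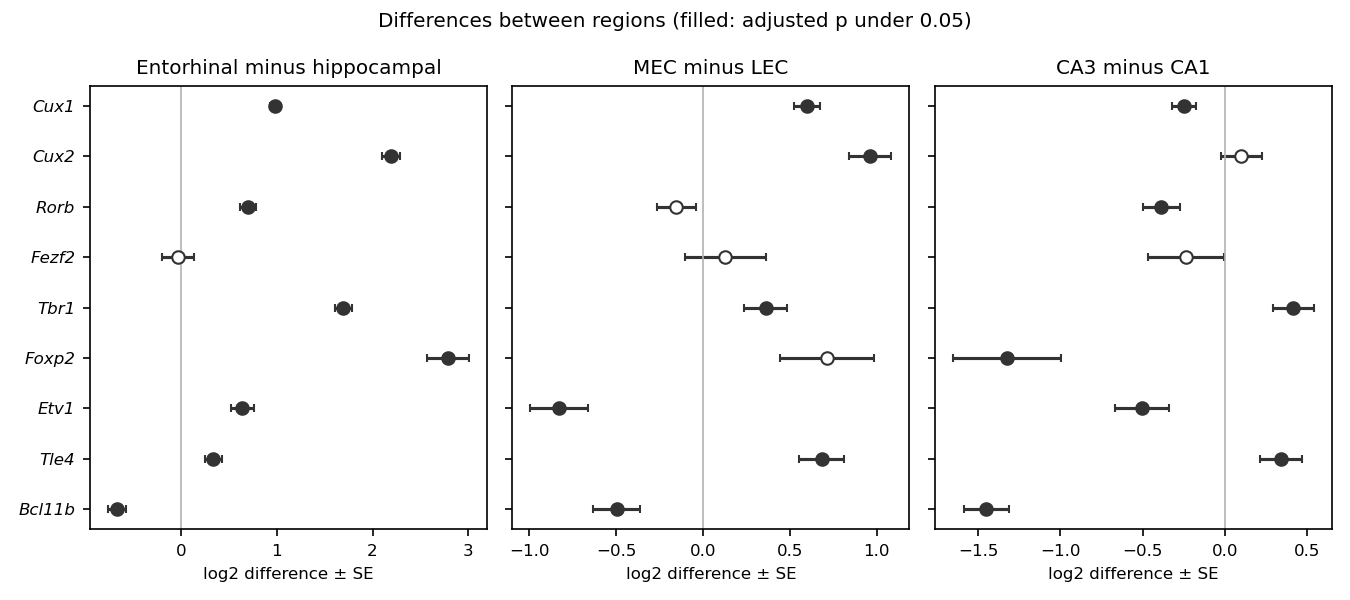
Log2 difference of each gene between regions with its standard error (36-library fit); filled points have an adjusted p under 0.05, and each panel has its own linear axis. Cux2 and Foxp2 have the largest entorhinal excess, and Etv1 and Bcl11b lie to the left of 0 for MEC minus LEC, where Cux1, Cux2, Tbr1 and Tle4 lie to the right.

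Regulators that work with these factors differed between regions in both directions. Of 29 partners and regulators of layer fate, 15 were higher and 12 lower in entorhinal cortex (median 0.22), where 50.9% of all genes were called. Mef2c, an activity-regulated MADS-box factor, was higher by 2.98 ± 0.12 (743 CPM ± 109, SD, n = 9, in MEC and 753 ± 146 in LEC against 121 ± 38.0 in CA1 and 70.8 ± 20.9 in CA3), and Tshz3, a teashirt zinc-finger gene, by 2.44 ± 0.08. Its relative Tshz2 was also higher (adjusted p = 1.13e-07). Pou3f1, a POU factor of CA1 neurons, was at -2.89 ± 0.25. Between MEC and LEC, 9 partners were higher in MEC and 9 lower, where 17.4% of all genes were called. Tshz2 was higher by 2.74 ± 0.46 (143 to 202 CPM in MEC, 16.4 to 48.8 CPM in LEC), the orphan nuclear receptor Nr4a2 by 1.70 ± 0.17 and Neurod6 by 1.26 ± 0.13. Bhlhe22, a helix-loop-helix gene of cortical area identity, was at -1.78 ± 0.16.

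Of 12 close relatives of the members, 11 were tested, and 2 were higher and 6 lower in entorhinal cortex (median -0.36, with 50.9% of all genes called). Rora, the relative of Rorb, was higher by 1.17 ± 0.07 and Etv5 by 0.51 ± 0.07. Tle1 (-1.12 ± 0.06) and Foxp1 (-0.68 ± 0.10) were lower, the opposite direction to Tle4 and Foxp2. Between MEC and LEC, 3 relatives were higher and 1 lower (17.4% of all genes called). Bcl11a was higher in MEC by 0.56 ± 0.10, where Bcl11b was lower, and Tle3 was lower at -0.42 ± 0.14, where Tle4 was higher. Foxp4 (0.67 ± 0.22) and Rora (0.38 ± 0.09) were the other higher relatives.

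Among 21 layer markers that are not transcription factors, 15 were higher and 3 lower in entorhinal cortex (median 1.28, with 50.9% of all genes called). The genes with the largest differences were Ccn2 (4.19 ± 0.26) and Cplx3 (4.02 ± 0.16), both known from the deepest cortical cells, Reln (2.25 ± 0.10), a secreted protein of superficial entorhinal neurons, and Rprm (2.16 ± 0.19). Between MEC and LEC, 6 were higher and 4 lower (17.4% of all genes called). Deptor (1.34 ± 0.12) and Wfs1 (0.90 ± 0.25) were higher in MEC, and Calb1 (-1.51 ± 0.20) and Rprm (-0.90 ± 0.25) were lower.

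Behaviour was followed by called changes of members in 2 of the 4 regions. The clearest were in MEC after fear, where both Cux genes were higher and Etv1 was lower than in the home cage: 3 of 9 members were called, against 9.56% of 16314 genes (5.68% higher and 3.88% lower). Cux1 stood at 71.5, 83.6 and 91.4 CPM after fear, 53.4, 55.2 and 70.1 CPM after context and 53.8, 43.0 and 56.9 CPM in the home cage. All 3 fear libraries lay above all 6 others, a separation whose share over all genes was not computed. Fear and home cage alone did not overlap for 31.4% of all genes. The rise over home cage was 0.72 ± 0.14 on the log2 scale (adjusted p = 0.00834, edgeR).

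Cux2 was at 80.0, 96.9 and 98.8 CPM after fear, 54.4, 58.5 and 75.2 CPM after context and 55.7, 53.1 and 67.8 CPM in the home cage. Again no fear library overlapped the other groups, and the rise was 0.68 ± 0.14 (adjusted p = 0.00981, edgeR). Etv1 went the other way, with 80.6, 72.6 and 61.3 CPM after fear, 109, 125 and 93.4 CPM after context and 92.6, 142 and 102 CPM in the home cage. All fear libraries were below the 6 others, and Etv1 fell by 0.60 ± 0.15 on the log2 scale (adjusted p = 0.0300, edgeR). For Cux2 and Etv1 too, the share of all genes with fear apart from the 6 others was not computed.

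Tle4 stood at 92.2, 62.8 and 63.9 CPM after fear, 101, 102 and 89.0 CPM after context and 99.7, 104 and 91.8 CPM in the home cage. Fear replicate 1 overlapped the other groups while replicates 2 and 3 did not, and the difference of -0.39 ± 0.13 missed the threshold (adjusted p = 0.0744). It passed with DESeq2 (-0.40, adjusted p = 0.0498) or without a filter on low counts (-0.39, adjusted p = 0.0267), and also without fear replicate 1 (-0.59, adjusted p = 0.00847) or home cage replicate 3 (-0.43, adjusted p = 0.0304). The other 5 members were not called: Rorb -0.24 ± 0.14, Fezf2 -0.23 ± 0.19, Foxp2 -0.34 ± 0.24, Bcl11b -0.24 ± 0.14 and Tbr1 0.05 ± 0.10. Of the deep-layer genes, 5 of 6 had a value below 0, but only Etv1 passed the test.

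The MEC calls depended on single libraries, and markers of several cell types were higher after fear than in the home cage. Without fear replicate 3, none of the 3 was called (Cux1 0.65, adjusted p = 0.0541; Cux2 0.64, adjusted p = 0.0575; Etv1 -0.49, adjusted p = 0.134). Without home cage replicate 2, Cux2 gave 0.60 (adjusted p = 0.0508) and Etv1 -0.41 (adjusted p = 0.116), and without fear replicate 2 Etv1 gave -0.62 (adjusted p = 0.0811). In a fit of all 36 libraries Cux1 alone stayed called (Cux2 0.70, adjusted p = 0.0858; Etv1 -0.58, adjusted p = 0.297). Of 9 oligodendrocyte markers, 5 rose after fear (median 0.70), where 9.56% of all genes were called. Their summed level was 2363, 1681 and 1656 CPM in the home cage, 2432, 2352 and 2733 CPM after context and 2420, 3370 and 3143 CPM after fear. With the mean log2 CPM of these 9 markers as a covariate, Cux1 gave 0.34 ± 0.23 (adjusted p = 0.446), Cux2 0.44 ± 0.25 (adjusted p = 0.378) and Etv1 -0.11 ± 0.23 (adjusted p = 0.829). The summed marker level did not overlap between fear and home cage, so this fit cannot tell marker level and fear apart. Of 7 endothelial markers 3 rose, with sums of 70.4 to 78.4 CPM in the home cage and 91.8 to 129.7 CPM after fear. Sums of 3 other lists were also higher after fear without overlap: interneurons (855 to 918 CPM against 674 to 755 CPM, 2 of 9 markers called), thalamus (145.5 to 152.8 CPM against 121.1 to 123.4 CPM, 4 of 8 called) and dentate granule cells (87.2 to 109.1 CPM against 63.7 to 76.4 CPM, 3 of 9 called). Of the 9 dentate granule markers, 4 had a mean under 1 CPM in MEC after fear and 3 in the home cage. Mitochondrial genes took 4.91% to 5.78% of counts after fear and 5.95% to 9.49% in the home cage. The part of these markers in the result was not tested.

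After context exposure in MEC, no member was called with edgeR or DESeq2, where 93 genes (0.57%) were called with edgeR and 559 with DESeq2, and 1 member had an unadjusted p under 0.05. That member was Tbr1, with 125, 114 and 115 CPM against 105, 112 and 87.4 CPM in the home cage (0.26 ± 0.10, adjusted p = 0.244). Cux1 gave 0.25 ± 0.14, Cux2 0.13 ± 0.13 and Etv1 0.00 ± 0.15 against the same home cage libraries that entered the fear comparison. Between fear and context in MEC, edgeR called 0 members and 0 genes of 16314 (DESeq2 48 genes and 0 members), with 2395 genes and 5 members at an unadjusted p under 0.05. Those members were Cux1 (0.47 ± 0.14), Cux2 (0.55 ± 0.14), Etv1 (-0.61 ± 0.16), Tle4 (-0.41 ± 0.13) and Bcl11b (-0.53 ± 0.14), all with an adjusted p of 0.312.

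**Figure D3:**
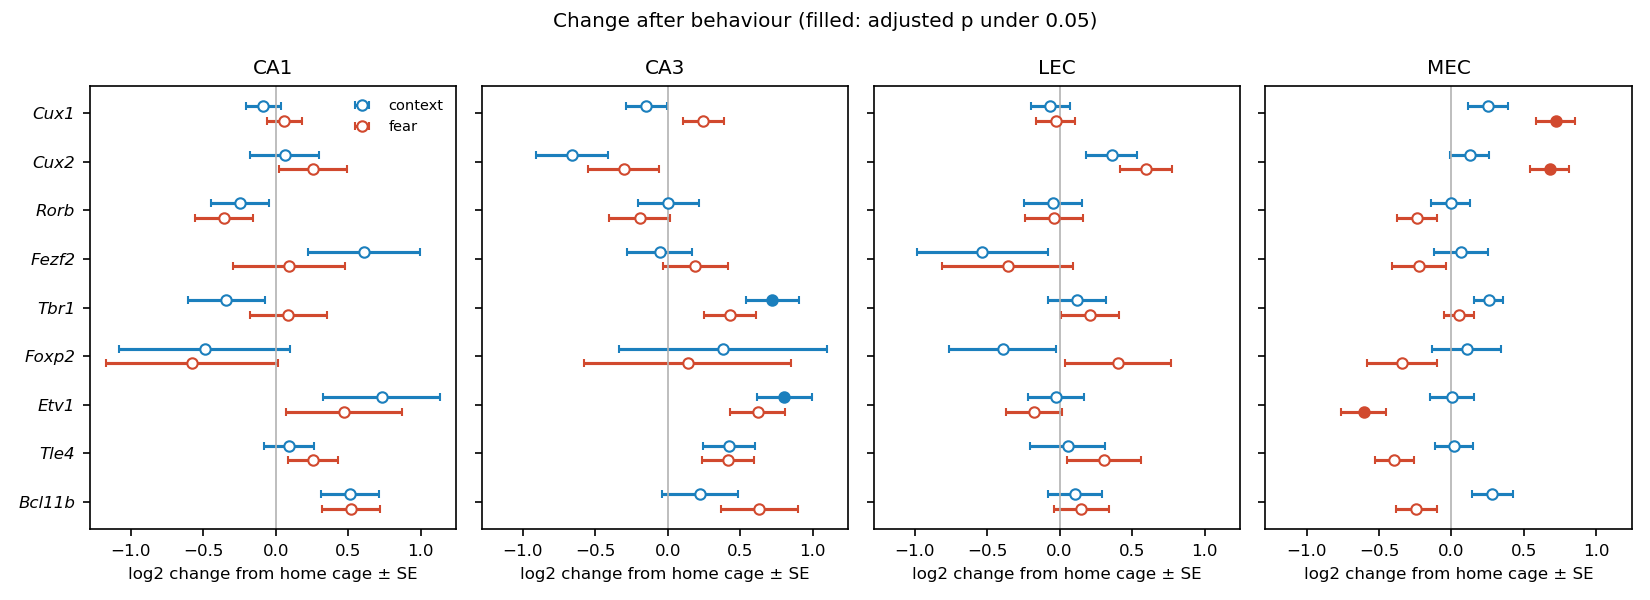
Log2 change of each gene from home cage after context and after fear in the 4 regions, with standard errors from the fit of each region; filled points have an adjusted p under 0.05. Called points are Cux1, Cux2 and Etv1 in MEC after fear and Tbr1 and Etv1 in CA3 after context; both comparisons share the home cage libraries.

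In CA3, 2 deep-layer genes were higher after context exposure than in the home cage, where 13.9% of 16145 genes were called (5.77% higher and 8.13% lower). Tbr1 was at 34.1, 42.2 and 39.3 CPM after context against 21.7, 23.2 and 31.3 CPM, and Etv1 at 70.8, 78.1 and 84.6 CPM against 50.6, 40.8 and 54.0 CPM. Neither overlapped the home cage, as for 33.1% of genes, and the rises were 0.72 ± 0.18 and 0.80 ± 0.19, both with an adjusted p of 0.0450 (edgeR). Both calls were lost in 7 of 9 fits that left out 1 library (all but context 1 and home cage 3), with an adjusted p up to 0.173, and with the oligodendrocyte covariate (0.66 and 0.79, both adjusted p = 0.107). Oligodendrocyte markers summed to 5819 to 8336 CPM after context and 6959 to 13262 CPM in the home cage, with 0 of 9 called. Markers of 2 other cell types did not overlap: 8 CA3 pyramidal cell markers summed to 855 to 999 CPM after context and 638 to 834 CPM in the home cage, and 9 interneuron markers to 592 to 699 CPM and 524 to 560 CPM. Their part was not tested.

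After fear, the same CA3 genes stood at 30.8, 29.7 and 35.4 CPM (Tbr1, 0.43 ± 0.18, adjusted p = 0.235) and 63.7, 58.6 and 86.2 CPM (Etv1, 0.62 ± 0.19, adjusted p = 0.162). The Etv1 ranges after fear and in the home cage did not overlap, as for 28.7% of genes. Cux2 in CA3 was at 11.2, 6.35 and 6.93 CPM after context against 11.9, 18.2 and 12.1 CPM, a difference of -0.66 ± 0.25 that was not called (adjusted p = 0.0790). No member was called for fear against home cage in CA3 with edgeR or DESeq2, where edgeR called 1 gene (0.00619%), DESeq2 called 640 and 4 members had an unadjusted p under 0.05.

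In CA1 and LEC, edgeR called 0 members and 0 genes in any comparison between conditions, where 207 to 3553 genes had an unadjusted p under 0.05. DESeq2 also called 0 members, but 1401 genes in CA1 after fear, 1061 after context and 15 between fear and context, and 39, 3 and 0 genes in LEC. Unadjusted p-values under 0.05 against home cage were found for Bcl11b in CA1 after fear and after context and for Cux2 in LEC after fear. Bcl11b in CA1 was at 202, 199 and 201 CPM after context, 232, 145 and 227 CPM after fear and 162, 112 and 171 CPM in the home cage (context 0.51 ± 0.20, adjusted p = 0.175; fear 0.52 ± 0.20, adjusted p = 0.158). The context libraries lay above the home cage ones, as for 24.8% of genes in either direction, and fear replicate 2 lay among the home cage libraries. In CA1, 8 CA1 pyramidal cell markers summed to 1314 to 1798 CPM after context, 830 to 1601 CPM after fear and 692 to 1403 CPM in the home cage. Home cage replicate 2 and fear replicate 2, the lowest of their groups for Bcl11b, were also the lowest for these markers. The 9 interneuron markers summed to 652 to 775, 674 to 796 and 447 to 578 CPM in the same order. The part of these markers was not tested. CA1 Rorb was at 18.5, 19.0 and 18.2 CPM after fear, 16.6, 19.9 and 23.8 CPM after context and 25.6, 32.2 and 17.3 CPM in the home cage, with overlapping ranges (-0.36 ± 0.20 after fear, adjusted p = 0.318).

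Cux2 in LEC was at 48.2, 42.3 and 38.5 CPM after fear, 30.9, 37.9 and 40.1 CPM after context and 21.9, 34.1 and 27.7 CPM in the home cage. The fear and home cage ranges did not overlap, as for 11.1% of genes in that comparison, and the difference was 0.60 ± 0.18 (adjusted p = 0.527). The estimate was close in size to that in MEC, but the spread in LEC was larger and the threshold was not met. LEC Tle4 ranged over 28.8 to 68.7 CPM in the home cage, 42.8 to 60.4 CPM after context and 49.8 to 71.7 CPM after fear, which overlap.

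Whether a response differed between regions was tested itself. No member was called for the fear or the context response in MEC minus LEC or in entorhinal minus hippocampal tissue, with edgeR or DESeq2, and edgeR called 3 of 17875 genes (0.0168%) for the fear response in MEC minus LEC and 0 in the other 3 tests. Cux1 had the smallest unadjusted p of these tests, for fear in MEC minus LEC (0.74 ± 0.18, adjusted p = 0.304). In entorhinal minus hippocampal tissue the fear responses of Etv1 (-0.94 ± 0.28, adjusted p = 0.295), Cux2 (0.67 ± 0.21, adjusted p = 0.316) and Bcl11b (-0.62 ± 0.23, adjusted p = 0.350) had unadjusted p-values under 0.05, as had the context responses of Etv1 (-0.76 ± 0.28, adjusted p = 0.225) and Cux2 (0.56 ± 0.21, adjusted p = 0.231) there and the fear response of Tle4 in MEC minus LEC (-0.70 ± 0.31, adjusted p = 0.728). A MEC-specific response of the Cux genes or Etv1 was therefore not shown.

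Partners and relatives of the members also changed with behaviour. In MEC after fear, 4 of 29 partners rose and 2 fell, where 9.56% of all genes were called. Bhlhe40, an activity-regulated helix-loop-helix repressor, rose by 1.16 ± 0.12 (116 to 161 CPM against 56.0 to 69.0 CPM, adjusted p = 0.000187) and Mef2c by 0.48 ± 0.10 (adjusted p = 0.00989). Bhlhe40 was also the 1 partner called in MEC after context (0.75 ± 0.12, adjusted p = 0.0133). Of 10 relatives tested, Etv5 and Rora rose, both by 0.54, and of 21 other layer markers 4 rose and 4 fell, among them Scnn1a (1.16 ± 0.20), a layer marker of granular neurons, Crym (-0.69 ± 0.14) and Calb1 (-0.59 ± 0.13).

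In CA3 after context, 3 partners rose and 2 fell, where 13.9% of all genes were called. Nr4a2 was at 0.96 ± 0.18, Nr2f2 at 0.69 ± 0.20 and Lhx2 at -0.70 ± 0.21. Relatives Foxp1 (0.70 ± 0.16) and Tle2 (-1.79 ± 0.54) and layer markers Parm1 (0.76 ± 0.18) and Rprm (-1.91 ± 0.53) were also called. All 7 had adjusted p-values between 0.045 and 0.0499 (edgeR), near the threshold, as had Tbr1 and Etv1.

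Within MEC, the 2 Cux genes varied together from library to library, and Etv1 and Tle4 varied in the opposite direction on Pearson's r. Over the 9 MEC libraries, Cux1 and Cux2 (log2 CPM) had a Pearson r of 0.963 (permutation p = 2.76e-06, adjusted p = 0.000397) and a Spearman rho of 1.00 (permutation p = 5.51e-06, adjusted p = 0.000794), both the smallest raw p their permutations can give: the genes put the 9 libraries in the same order. Without the 2 libraries farthest from the median r was 0.909, and for deviations from the mean of each condition it was also 0.909. This was the 1 of 144 pairs (36 in each region) that passed on both measures, while 9 passed on Pearson's r. All pairs of a region share its 9 libraries and their totals.

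The opposed pairs that passed on Pearson's r were Cux1 and Etv1 (r = -0.934, rho = -0.867), Cux2 and Etv1 (r = -0.887, rho = -0.867), Cux1 and Tle4 (r = -0.890, rho = -0.883) and Cux2 and Tle4 (r = -0.922, rho = -0.883). Their adjusted permutation p-values were 0.0117 to 0.0299 for r and 0.0927 for rho. The permutations crossed conditions, so these p-values also carry differences between conditions. Deviations from condition means gave r = -0.883, -0.630, -0.751 and -0.782 in that order. These values describe libraries of the same condition and were not tested. The other deep-layer genes did not pass against either Cux gene: r with Cux1 and Cux2 was -0.728 and -0.774 for Bcl11b, -0.617 and -0.522 for Fezf2, -0.425 and -0.571 for Foxp2 and -0.299 and -0.444 for Tbr1. Etv1 and Tle4 varied together (r = 0.850, rho = 0.850, adjusted permutation p = 0.0299 and 0.0972).

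The oligodendrocyte marker level was set against these genes in the same libraries. Its mean log2 CPM gave r = 0.832 with Cux1, 0.701 with Cux2, -0.763 with Etv1 and -0.733 with Tle4, with rho of 0.65, 0.65, -0.717 and -0.70. Permutation p-values for r were 0.00566, 0.0359, 0.0163 and 0.0328, and none passed over the 36 relations computed (adjusted p = 0.195 for each). Without the 2 libraries farthest from the median marker level, r was 0.898, 0.885, -0.796 and -0.973. Its part in the opposition was not tested.

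**Figure D4:**
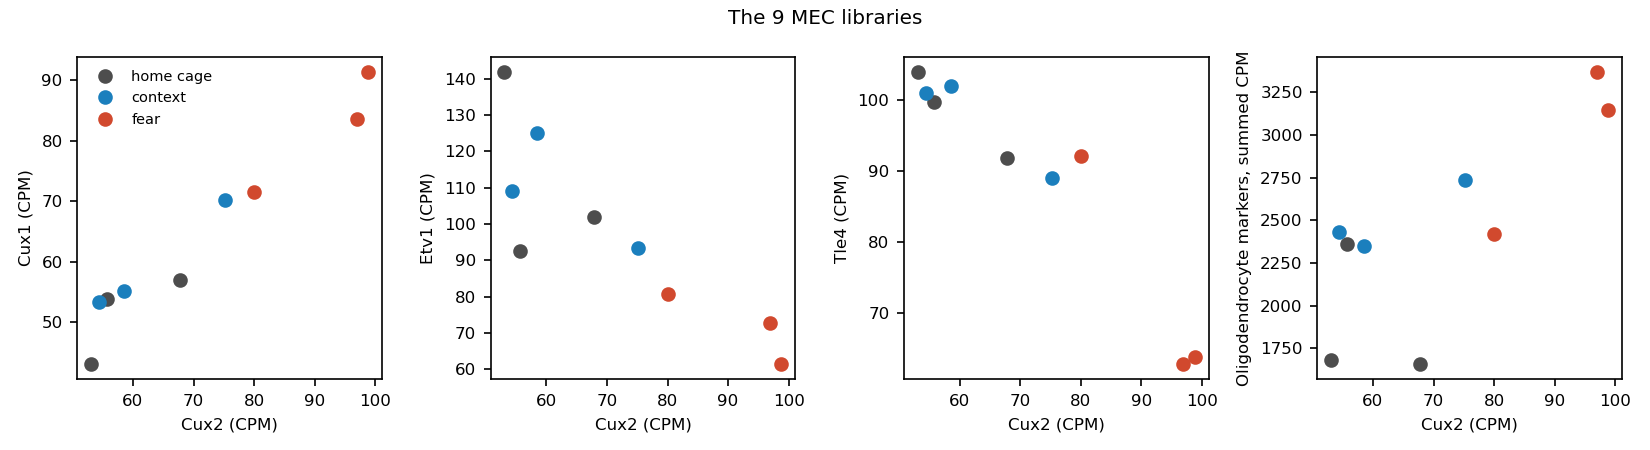
Cux2 level (CPM) in the 9 MEC libraries against Cux1, Etv1 and Tle4 (CPM) and against the summed level of 9 oligodendrocyte markers (CPM); each point is a library, coloured by condition. Cux1 rises with Cux2 in the same library order, Etv1 and Tle4 fall, and the fear libraries lie at the high end of Cux2, from 80.0 to 98.8 CPM.

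In CA3, Tbr1 and Etv1 varied together over 9 libraries (r = 0.883, rho = 0.867, adjusted permutation p = 0.0299 and 0.0927) and Cux2 and Etv1 in opposite directions (r = -0.858, rho = -0.783, adjusted permutation p = 0.0480 and 0.207). Without the 2 farthest libraries these were 0.799 and -0.775, and for deviations from condition means 0.642 and -0.709. In CA1, Fezf2 and Etv1 varied together (r = 0.862, rho = 0.883, adjusted permutation p = 0.0477 and 0.0927; 0.856 without the 2 farthest libraries). No pair in LEC passed.

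As a description over all 36 libraries, which span the 4 regions, the genes most like each member among 10149 whose mean log2 CPM was 3 or more were listed by Pearson r. Cux1 was closest to the presynaptic genes Rims3 and Rims4 (both 0.952) and Olfm2 (0.949), and Cux2 to Fhod3 (0.972), Cit (0.960) and Ccdc136 (0.958). Rorb was closest to Vcam1 (0.918), Rgs20 (0.908) and Slc7a11 (0.903). Tbr1 was closest to Rgs17 (0.955), the glutamate receptor gene Gria4 (0.953) and Prrg3 (0.952), and Foxp2 to Colec12 (0.934), Arhgap42 (0.918) and Ogn (0.916). Etv1 was closest to Ptprz1 (0.876), Stx7 (0.865) and Mettl9 (0.855), and Tle4 to Elac1 (0.847), Ppip5k1 (0.810) and Esrrg (0.805). Bcl11b was closest to Dapk1 (0.925), Doc2b (0.923) and Shisa7 (0.918), whereas for Fezf2 the highest values were 0.692 (Galnt9), 0.647 (Sez6) and 0.635 (Itpkc). Points share depth and region, so these values carry no test.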

How the data were processed

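The submitters' processing notes name Trimmomatic 0.33, STAR 2.7.10b, HTSeq 2.0.1 and the mm10 build; per the labels' protocols, RNA was extracted with TRIzol and libraries were prepared with a stranded TruSeq kit. For the counting, settings, annotation and strand option were not given in the sources used here. The authors deposited whole-number read counts per gene, used here as deposited, and the 36 single-library files equalled the table. Symbols and exon lengths came from GENCODE M21, which named 35533 genes (95.2%).

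Groups followed the tissue and treatment labels. Counts were filtered with filterByExpr, scaled (TMM) and tested in edgeR with robust quasi-likelihood fits: all 36 libraries for regions and interactions (24 residual degrees of freedom), the 9 of a region for conditions (6 each). CPM are counts per 1000000 of the plain total, so a ratio of CPM can differ from the TMM-scaled difference. Correlations within a region used log2 CPM (prior count 2) and 2-sided exact permutation tests over all orders of 9 libraries. The procedure was tested on simulated data. Replicates of a group differed beyond sampling noise in all 36 pairs. Software was edgeR 4.0.16 and DESeq2 1.42.0 in R 4.3.3, with scipy 1.17.1, pandas 2.3.3 and numpy 2.4.6 under Python 3.11.15 and figures from matplotlib 3.10.9.

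The members and gene lists were chosen with earlier results of these data known. By rule, all members were named between regions, and between conditions those called and, per region, the 2 of smallest p; from other lists the 4 largest called region differences whose mean log2 CPM was 3 or more and called genes with one of the 3 smallest p-values between conditions. Further members with an unadjusted p under 0.05 were named after their values were seen. A gene that this rule would name from the other lists is not reported here. Alternatives were DESeq2's size factors (RLE), no filter, DESeq2, the replicate block, home cage libraries alone, a 36-library fit, an oligodendrocyte covariate and leaving libraries out. Replicate numbers do not name mice: deviations of same-numbered libraries correlated above 0.1 in every pair in 2 of 12 comparisons of conditions and 4 of 18 of regions, over 10149 genes.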

Additional observations from a re-analysis of the deposited data

Results flagged for a closer look

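The fear response of Etv1 differed between MEC and CA3 by -1.24 on the log2 scale. All 3 MEC fear libraries lay below the home cage range and all 3 CA3 fear libraries above it. Fear and home cage did not overlap for 31.4% of all genes in MEC and 28.7% in CA3. The contrast was added after seeing the data and was not called (adjusted p = 0.336, edgeR). It was 1 of several added contrasts between pairs of regions, in which no member was called. Some other members had smaller unadjusted p-values there. Among them were the context responses of Tbr1 in CA3 minus CA1 (1.06, adjusted p = 0.1075, edgeR) and Cux2 in LEC minus CA3 (1.04, adjusted p = 0.1063, edgeR).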

How the results depend on the processing

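Replicate numbers were also entered as a block. With the replicate block, 5 members were called in MEC between fear and context where 0 were without it. The share of all genes called with the block is not given here, so that count is not read as a result about the members. Tle4 in MEC also passed after fear with the block (-0.41, adjusted p = 0.00926). The block changed no other call of a member. Deviations of same-numbered libraries correlated at 0.36, -0.01 and 0.28 for context and fear in MEC, 0.11, -0.23 and 0.27 for home cage and fear, and 0.60, 0.33 and 0.76 for home cage and context. Within MEC, every value exceeded 0.1 only for home cage and context. Mice of different conditions were treated differently, so these numbers cannot pair conditions by mouse, and the main fits used no pairing. Whether libraries of different regions share mice is not given by the labels. In home cage libraries alone, 1 member was called between MEC and LEC and 1 between CA3 and CA1. With the oligodendrocyte covariate, 0 members were called in MEC after fear and 0 in CA3 after context, as in CA3 without context 2 and home cage 2 together (0). The 36-library fit called 1 in MEC after fear, and the fit with no filter called 1 in MEC between fear and context. Leaving out 1 library gave 0 to 4 called members in MEC after fear, 0 to 3 in CA3 after context, 0 to 2 in CA3 between fear and context and 0 to 1 in MEC between fear and context. Leaving out 1 replicate number of a condition in all 4 regions gave 0 to 1 for the fear response in MEC minus LEC and 0 to 1 for the context response in entorhinal minus hippocampal tissue. The cause of these changes was not tested. Shares of all genes called in these other fits are not given here either, so none of the counts is read as a result about the members.

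Values that changed sign were uncalled in the main result, apart from Tbr1 in CA3 minus CA1 (-0.05 in home cage libraries). In home cage libraries Fezf2 gave 0.32 (LEC minus CA1), 0.19 (MEC minus CA1), -0.12 (MEC minus LEC) and 0.28 (entorhinal minus hippocampal), Etv1 0.56 (MEC minus CA1) and Bcl11b 0.07 (MEC minus CA3). With the block, Fezf2 gave -0.05 (LEC minus CA3) and Etv1 0.02 (MEC minus CA1). With the covariate in MEC, Fezf2 gave 0.09, Tbr1 -0.01 and Bcl11b 0.27 after fear and Cux2 -0.03 after context. Leaving out libraries gave ranges that crossed 0 for Fezf2 in LEC minus CA3 (-0.32 to 0.17), Fezf2 in MEC minus CA1 (-0.23 to 0.09), Etv1 in MEC minus CA1 (-0.11 to 0.15), Fezf2 in MEC minus LEC (-0.03 to 0.50), Cux2 in CA3 minus CA1 (-0.02 to 0.22), Fezf2 in entorhinal minus hippocampal (-0.12 to 0.08), Tle4 in LEC context minus home cage (-0.22 to 0.35), Tbr1 in MEC fear minus home cage (-0.03 to 0.11), Cux2 in MEC context minus home cage (-0.02 to 0.25) and Etv1 in MEC context minus home cage (-0.10 to 0.20). Foxp2 had as few as 2 counts in a CA3 library, the lowest count of any member.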
